A study of Homo sapiens with 6 samples.

Results

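Alpha granules are the most abundant storage granules of platelets, and their cargo is laid down earlier, in the megakaryocyte. The genes described here code for alpha granule proteins other than chemokines, and they were chosen by name. The choice named 10 genes, of which 8 were listed among the 31999 genes of the deposited table: THBS1, VWF, SELP, F5, MMRN1, SPARC, SRGN and CLU. The remaining 2, TGFB1 and PDGFA, were not analysed here. The RNA came from HEL cells, a human erythroleukemia line. In 3 libraries (shCtrl) the cells carried a lentiviral small hairpin RNA with a non-targeting sequence, and in 3 others (shTMIGD2) a hairpin against TMIGD2, a co-stimulatory receptor of the CD28 family. All 6 libraries thus came from hairpin-bearing cells of 1 line, and cells without a hairpin were not analysed here.

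The values are the authors' mean log2 CPM (reads of a gene scaled to the library total) for each gene over all 6 libraries. This mean joins shCtrl and shTMIGD2, so it carries no spread between libraries, and neither a difference between the groups nor a test can be read from it. The depth of the libraries is unknown from the table. In bulk RNA, fewer cells that express a gene and less of its RNA per cell cannot be told apart. For comparisons between genes, each level was divided by the length of the gene's canonical transcript in GENCODE 44 and is given as log2 CPM per kb.

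Megakaryocytes fill alpha granules along the secretory route, and some plasma proteins are added by uptake from outside. Adhesive proteins such as thrombospondin and von Willebrand factor, membrane receptors such as P-selectin, clotting factors and their carriers, matrix proteins and proteoglycans share the granule and are released or exposed when a platelet is activated. HEL cells carry erythroid and megakaryocytic traits, and all 10 erythroid and megakaryocytic markers examined were above 1 CPM in the table. The highest of them as deposited was ITGA2B, the platelet integrin subunit alpha IIb, at a mean log2 CPM of 10.54. Per length they ran from 4.25 in log2 CPM per kb for EPOR, the erythropoietin receptor gene, to 10.49 for HBG1, a fetal globin gene.

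Of the 8 cargo genes listed, 6 had a mean level of at least 1 CPM and 2 were below it. Over all genes listed, 43.75% of genes, and 69.17% of the 16178 genes with a RefSeq protein, were at or above 1 CPM. The 6 higher genes, CLU, SRGN, SPARC, THBS1, SELP and MMRN1, ranged from 5.82 to 7.51 in mean log2 CPM as deposited, and more widely per length, from 3.28 to 6.38 in log2 CPM per kb. F5 and VWF lay far below them, with a gap of 6.99 in mean log2 CPM between MMRN1, the lowest of the 6 as deposited, and F5. Per length the gap was 7.65 in log2 CPM per kb, between THBS1 and F5. No other cargo gene filled this gap. Since the table gives no spread, the order of the 6 is a description only.

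**Figure D1:**
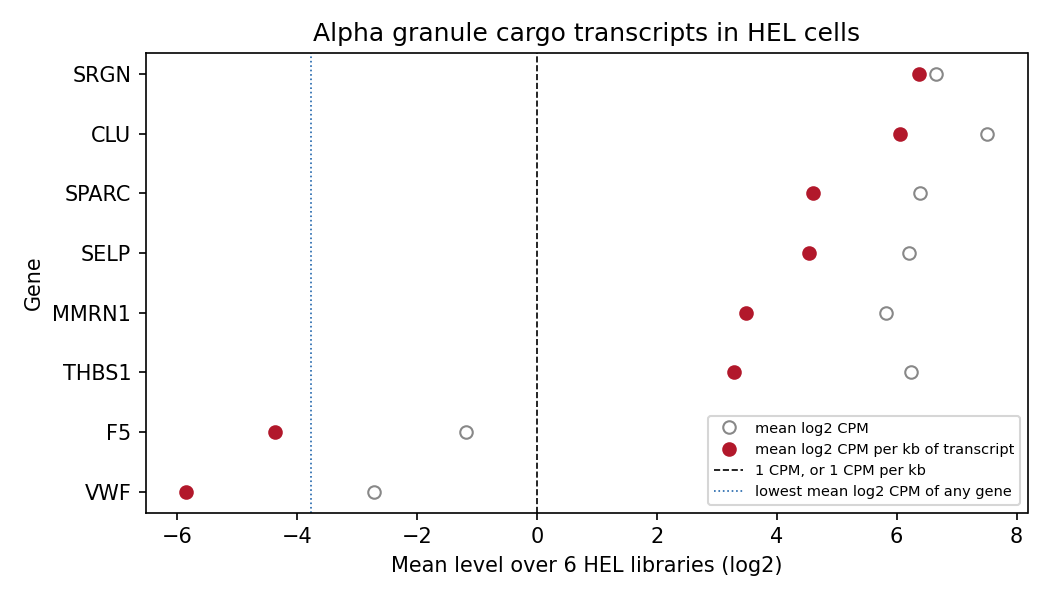
Mean level of the 8 alpha granule cargo genes over 6 HEL libraries, on a log2 scale; open circles show the authors' mean log2 CPM, filled circles the same level per kb of transcript, the dashed line 1 CPM (or 1 CPM per kb) and the dotted line the lowest mean log2 CPM of any gene. The 6 upper genes lie to the right of 3 on both scales, and F5 and VWF lie to the left of 0.

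Per length of transcript, SRGN was the highest of the cargo genes. SRGN codes for serglycin, the proteoglycan core protein whose glycosaminoglycan chains hold basic proteins inside secretory granules of blood cells. Its gene lies on the plus strand of chromosome 10 from 69088103 to 69104805 (hg38) and has 3 exons and a transcript of 1217 bases. The mean level was 101.3 CPM, or a log2 CPM of 6.66, and the level per length was 6.38 in log2 CPM per kb. Of 16339 protein-coding genes with a transcript length, 94.8% were lower per kb.

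CLU, which codes for clusterin, a secreted chaperone, was the highest as deposited and second per length. On chromosome 8 it covers 27596917 to 27614700 of the minus strand and has 9 exons. Its mean level was 182.9 CPM (log2 CPM 7.51), and its level per length was 6.06 in log2 CPM per kb, above 93.4% of protein-coding genes. SRGN and CLU therefore stood at the upper end of the protein-coding genes on the scale that accounts for length, while their order depended on whether length was considered.

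SPARC codes for osteonectin, a collagen-binding matrix protein stored in platelets. On chromosome 5 it covers 151661096 to 151686975 of the minus strand, with 10 exons, and had a mean level of 83.9 CPM (log2 CPM 6.39). Per length this was 4.60 in log2 CPM per kb, above 82.1% of protein-coding genes. SPARC is also a product of fibroblasts, whose other markers were low in these libraries. Each of the 5 fibroblast markers examined was below 1 CPM, and together they summed to 1.16 CPM. The highest was COL1A1 at a mean log2 CPM of -0.80, or -3.37 per kb, and the lowest per kb was COL3A1 at -5.86.

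THBS1, MMRN1 and VWF code for large adhesive proteins that form multimers or trimers. THBS1 codes for thrombospondin 1, which binds matrix and the receptors CD36 and CD47, and lies on the plus strand of chromosome 15 from 39581079 to 39599466. It had a mean level of 75.6 CPM (log2 CPM 6.24) on a transcript of 7789 bases and 22 exons. Per length, its level of 3.28 in log2 CPM per kb was the lowest of the 6 higher cargo genes, above 65.8% of protein-coding genes. FSIP1 overlaps THBS1 on the opposite strand and had a mean log2 CPM of 0.71. Whether strand was used in counting is not given in the sources used here, so any effect of the overlap on these levels is unknown.

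MMRN1 codes for multimerin 1, the large granule protein that binds factor V in platelets. It lies on the plus strand of chromosome 4 from 89879532 to 89954629, and its mean level was 56.3 CPM (log2 CPM 5.82). On a transcript of 5001 bases this gave 3.49 in log2 CPM per kb, above 68.4% of protein-coding genes. MMRN1 was thus 0.43 lower than THBS1 as deposited and 0.21 higher per length, both on the log2 scale.

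VWF codes for von Willebrand factor, which tethers platelets to collagen through glycoprotein Ib, and is made by megakaryocytes and endothelial cells. The gene covers 175894 bases of the minus strand of chromosome 12, from 5948877 to 6124770, with 52 exons. Its mean level was 0.153 CPM (log2 CPM -2.71), which was 1.05 above the lowest mean log2 CPM in the table, -3.76. That lowest value was shared by 1820 genes within 0.001. With so small a distance from the lowest value, the per-length level of -5.85 in log2 CPM per kb, below which lay 2.73% of protein-coding genes, depends on the authors' prior count and is poorly measured. VWF also has a near-identical partial copy, the pseudogene VWFP1 on chromosome 22, whose level was not analysed here, so its value is uncertain. ADAMTS13, the protease that trims von Willebrand factor multimers, had a mean log2 CPM of 0.30.

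**Figure D2:**
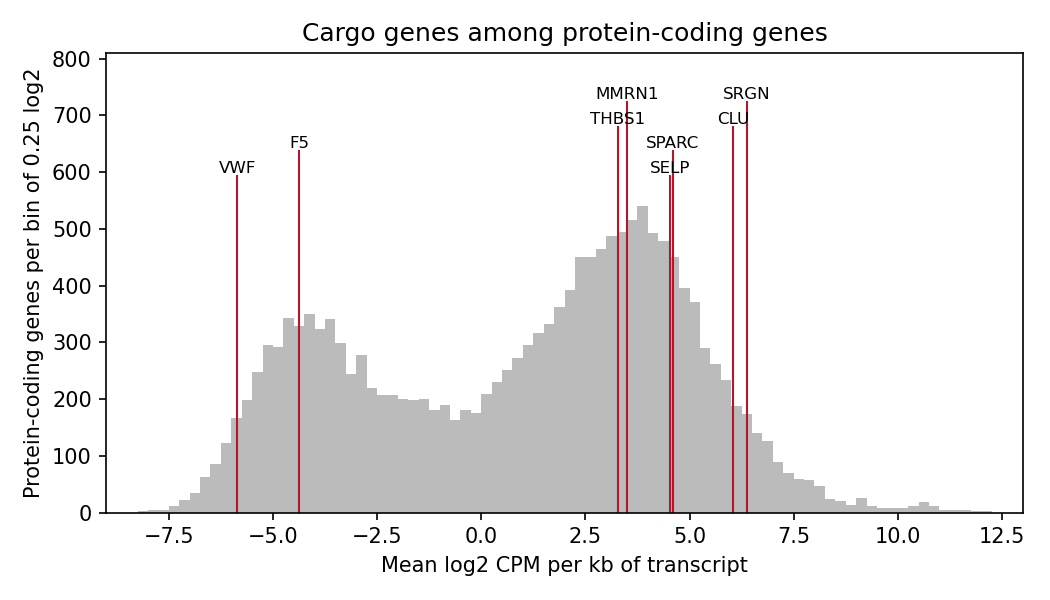
Number of protein-coding genes (vertical axis, per bin of 0.25 log2) at each mean level per kb of transcript (horizontal axis, log2 CPM per kb); red lines mark the 8 cargo genes. The protein-coding genes form a low and a high hump; VWF and F5 stand in the low one and the 6 other cargo genes in the high one.

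SELP and F5 are direct neighbours on chromosome 1, SELP among the 6 higher cargo genes and F5 below 1 CPM. SELP codes for P-selectin, a receptor of the alpha granule membrane that moves to the platelet surface on activation and binds leukocytes through PSGL-1. F5 codes for coagulation factor V, the cofactor of factor Xa in forming thrombin. Both are read from the minus strand, F5 from 169511951 to 169586588 and SELP from 169588849 to 169630193, with 2260 bases between them. SELP had a mean level of 73.5 CPM (log2 CPM 6.20) and F5 of 0.442 CPM (log2 CPM -1.18). Per length of transcript the levels were 4.54 for SELP and -4.37 for F5 in log2 CPM per kb, a difference of 8.91. As deposited the difference was 7.38 in log2 CPM. F5 was 2.59 above the lowest mean log2 CPM of any gene, so its level and both differences depend on the authors' prior count. SELP was above 81.2% of protein-coding genes per kb and F5 above 12.7%. On the far side of F5 lies SLC19A2, a thiamine transporter gene, at 2.34 in log2 CPM per kb, and the next coding gene beyond SELP, C1orf112, was at 2.79. F5 was thus the lowest of these 4 genes in a row.

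The promoters of the pair are shown because the genes stand side by side and differ in level. Both are given 5′ to 3′ on the minus strand of GRCh38.p14, from 250 bases before to 50 bases after the RefSeq start of the gene. That of SELP covers chr1:169630075-169630374 and that of F5 chr1:169586432-169586731. Capitals mark the letters bound by GATA factors (AGATAA or AGATAG or TGATAA or TGATAG, either strand) or a GC box (GGGCGG, either strand), and the GATA and GC box letters do not overlap in these windows.
SELP: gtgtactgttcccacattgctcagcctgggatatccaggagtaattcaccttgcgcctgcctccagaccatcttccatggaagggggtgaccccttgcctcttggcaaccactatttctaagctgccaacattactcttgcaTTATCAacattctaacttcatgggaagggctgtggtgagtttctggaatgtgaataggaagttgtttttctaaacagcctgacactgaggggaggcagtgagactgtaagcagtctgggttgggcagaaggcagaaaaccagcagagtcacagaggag
F5: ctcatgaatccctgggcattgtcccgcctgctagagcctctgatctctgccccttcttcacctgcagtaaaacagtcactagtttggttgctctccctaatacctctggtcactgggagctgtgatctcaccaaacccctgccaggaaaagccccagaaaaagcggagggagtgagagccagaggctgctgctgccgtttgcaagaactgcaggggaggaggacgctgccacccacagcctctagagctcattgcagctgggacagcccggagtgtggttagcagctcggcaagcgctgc

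SELP held 1 GATA match, TTATCA on the printed strand, which starts 108 bases before the RefSeq start of the gene, and 1 match to the ETS letters AGGAAG. F5 held no match to the GATA letters, the GC box, the ETS letters or the TATA box (TATAAA), and its GC content was 58% against 49.7% in SELP. Across 35116 promoters of the same length, 25% held a GATA match, 45% a GC box, 33.6% the ETS letters and 11.5% the TATA box, each on either strand. A GATA match was therefore common, and these matches describe letters in the windows and not binding.

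The promoters of THBS1 and MMRN1 are shown as the pair of large adhesive proteins among the 6 higher genes, since they differ in base composition. They lie on the plus strand at chr15:39580829-39581128 and chr4:89894604-89894903 (GRCh38.p14). The latter is at the more downstream of the MMRN1 starts in RefSeq, and which start HEL cells use was not tested. Capitals mark the same letters.
THBS1: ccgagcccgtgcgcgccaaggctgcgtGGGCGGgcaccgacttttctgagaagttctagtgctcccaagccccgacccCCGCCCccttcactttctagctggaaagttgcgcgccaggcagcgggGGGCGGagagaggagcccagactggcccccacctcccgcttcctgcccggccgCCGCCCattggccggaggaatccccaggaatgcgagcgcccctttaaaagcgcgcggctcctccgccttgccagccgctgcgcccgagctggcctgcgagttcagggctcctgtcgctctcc
MMRN1: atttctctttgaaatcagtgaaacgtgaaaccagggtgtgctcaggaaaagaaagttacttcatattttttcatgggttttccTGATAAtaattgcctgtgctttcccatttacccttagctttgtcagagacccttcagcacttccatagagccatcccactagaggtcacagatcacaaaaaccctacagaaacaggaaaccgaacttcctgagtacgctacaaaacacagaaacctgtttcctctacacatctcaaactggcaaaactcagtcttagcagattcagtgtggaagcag

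THBS1 had a GC content of 70%, 29 CpG dinucleotides and 4 GC box matches, with no GATA match. MMRN1 at the start shown had a GC content of 42%, 3 CpG dinucleotides and 1 GATA match. This match, TGATAA, starts 167 bases before the RefSeq start shown. The other MMRN1 start in RefSeq had 1 GC box match and no GATA match. SPARC, with a GC content of 61.3%, had 1 GATA match, AGATAG, at 76 bases before the start. Over all promoters the mean GC content was 57.5%. Promoter entries were matched by symbol for 5 of the 8 genes, and VWF, SRGN and CLU had none.

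Other alpha granule cargo that megakaryocytes can make ranged from near the lowest value of the table to above SRGN. Of 16 such genes, 10 were at or above 1 CPM and 6 below. The share at or above it was 62.5%, against 69.17% of all genes with a RefSeq protein. Their median was 1.37 in log2 CPM per kb, against 4.02 for the 8 genes and 1.81 for all protein-coding genes. The highest per length was TIMP1, an inhibitor of matrix metalloproteinases, at 7.13, and the lowest VEGFC, a lymphatic growth factor, at -4.66. LTBP1, which binds latent TGF-beta, was at 5.31 in log2 CPM per kb, and had the highest level as deposited, a mean log2 CPM of 8.02.

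Cargo that platelets take up from plasma was near the lowest value of the table. None of the 6 genes listed, among them ALB for albumin and FGB and FGG for fibrinogen chains, reached 1 CPM, and their levels per length ran from -5.83 for KNG1 to -4.16 for FGG in log2 CPM per kb. Per length, F5 at -4.37 lay within this range, and VWF at -5.85 just below it. As deposited, however, F5 and VWF were above all 6, at -1.18 and -2.71 in mean log2 CPM. The highest of the 6 was FGB, at -2.93. The overlap per length came from the long transcripts of F5 and VWF, 9132 and 8830 bases, against 4198 for KNG1, the longest of the 6. Levels this low also depend on the authors' prior count. Factor V in platelets is itself known to come largely from plasma in humans, whereas von Willebrand factor is made by the megakaryocyte.

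The genes that make alpha granules and the genes that handle their cargo were present throughout. All 13 biogenesis and release genes were at or above 1 CPM, with a median of 4.55 in log2 CPM per kb, from 0.52 for VPS33B to 7.68 for GFI1B. NBEAL2, the gene mutated in gray platelet syndrome, in which alpha granules are empty, was at 4.59. VPS33B and VIPAS39, whose proteins act as a pair in alpha granule formation, were at 0.52 and 3.35. All 12 granule membrane genes listed were at or above 1 CPM as well, with a median of 4.50, CD9 lowest at 1.28 and ITGA2B highest at 8.74. The 12 dense granule genes, which serve the other storage granule of platelets, had a median of 3.34, from 1.13 for LYST to 7.04 for ABCC4, and each was at or above 1 CPM. Beside these counts, and those of the groups below, stands the share of 69.17% over all genes with a RefSeq protein.

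**Figure D3:**
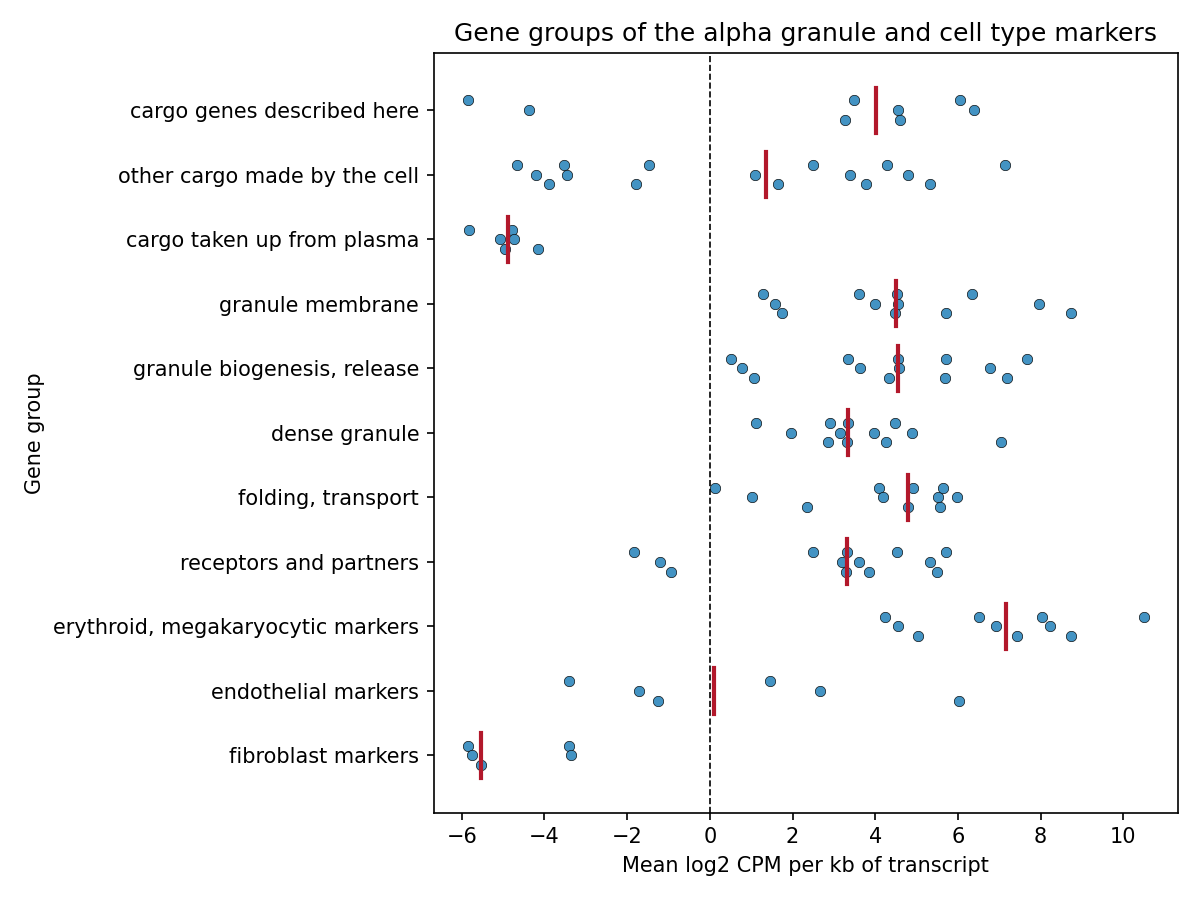
Mean level per kb of transcript (log2 CPM per kb) of the genes in each group; every point is 1 gene, red bars are group medians and the dashed line is 1 CPM per kb. Per kb, the 8 cargo genes split into 6 at the level of the granule membrane and biogenesis groups and 2 at the level of cargo taken up from plasma. As deposited, without length, these 2, F5 and VWF, were above every plasma cargo gene listed.

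Of the cargo handling genes, all 11 were at or above 1 CPM, with a median of 4.80 in log2 CPM per kb. LMAN1 and MCFD2, whose proteins carry factor V and factor VIII out of the endoplasmic reticulum, were at 5.64 and 5.52, while F5, whose product they carry, was at -4.37. FURIN, the protease that removes the propeptide of von Willebrand factor, was at 5.58, while VWF was at -5.85. The highest of the group was SURF4, a cargo receptor for secreted proteins, at 5.97, and the lowest XYLT1, which starts glycosaminoglycan chains, at 0.12. XYLT2, which has the same activity on core proteins such as serglycin, was at 4.91.

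Receptors and partners of the cargo were also expressed. All 13 listed were at or above 1 CPM, with a median of 3.32 in log2 CPM per kb. CD36 and CD47, receptors of thrombospondin 1, were the highest, at 5.72 and 5.49. GP1BA, which codes for the von Willebrand factor receptor glycoprotein Ib alpha, was at 4.53, and SELPLG, which codes for PSGL-1, the ligand of P-selectin, at 3.32. CD44, a partner of serglycin, was at 3.30. LRRC32, which holds latent TGF-beta on the platelet surface, was at 3.61, and the TGF-beta receptors TGFBR1 and TGFBR2 at 3.85 and 2.49. PDGFRB, a receptor of platelet-derived growth factor, was at -0.95, and ADAMTS13 the lowest at -1.84.

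Several cargo genes are also known from endothelial cells, so endothelial markers were examined beside them. Of 6 such markers, 5 were at or above 1 CPM, and the range of their levels per length was wide, from -3.40 for CLDN5 to 6.03 for TIE1 in log2 CPM per kb. CDH5, which codes for VE-cadherin, was at a mean log2 CPM of 0.31, and CLDN5, which codes for claudin 5, at -2.93. KDR was at 5.22, TEK at 3.68, ROBO4 at 0.86 and TIE1 at 7.99 in mean log2 CPM. Together the 6 summed to 306.7 CPM, of which TIE1 gave 253.5. Of 4 monocyte markers, 3 were at or above 1 CPM, with LYZ highest at a mean log2 CPM of 4.40 and CD14 at -2.67. Of 4 T cell markers, 2 were listed, CD2 at a mean log2 CPM of 2.95 and CD3G at -3.66. The labels of all 6 libraries name HEL cells only, and the part of other cell types in the cargo levels was not tested.

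In most families of the cargo genes, the alpha granule member was the highest of the relatives examined. The families were chosen after the levels had been seen. Among thrombospondins, THBS1 at 3.28 in log2 CPM per kb stood above THBS3 at -0.68, COMP and THBS4 at -2.42 and -2.43, and THBS2 at -5.83. Among multimerins and emilins, MMRN1 at 3.49 stood above EMILIN2 at 2.13, EMILIN1 at 0.07, MMRN2 at -0.59 and EMILIN3 at -5.17. In the SPARC family, SPARC at 4.60 was the only one of 6 listed genes above 1 CPM per kb, with the next, SPOCK2, at -1.88. Among selectins, SELP at 4.54 stood above SELE, the endothelial selectin, at -5.72. The exception was F5, which at -4.37 was below F8, the gene of the related factor VIII, at -1.23.

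**Figure D4:**
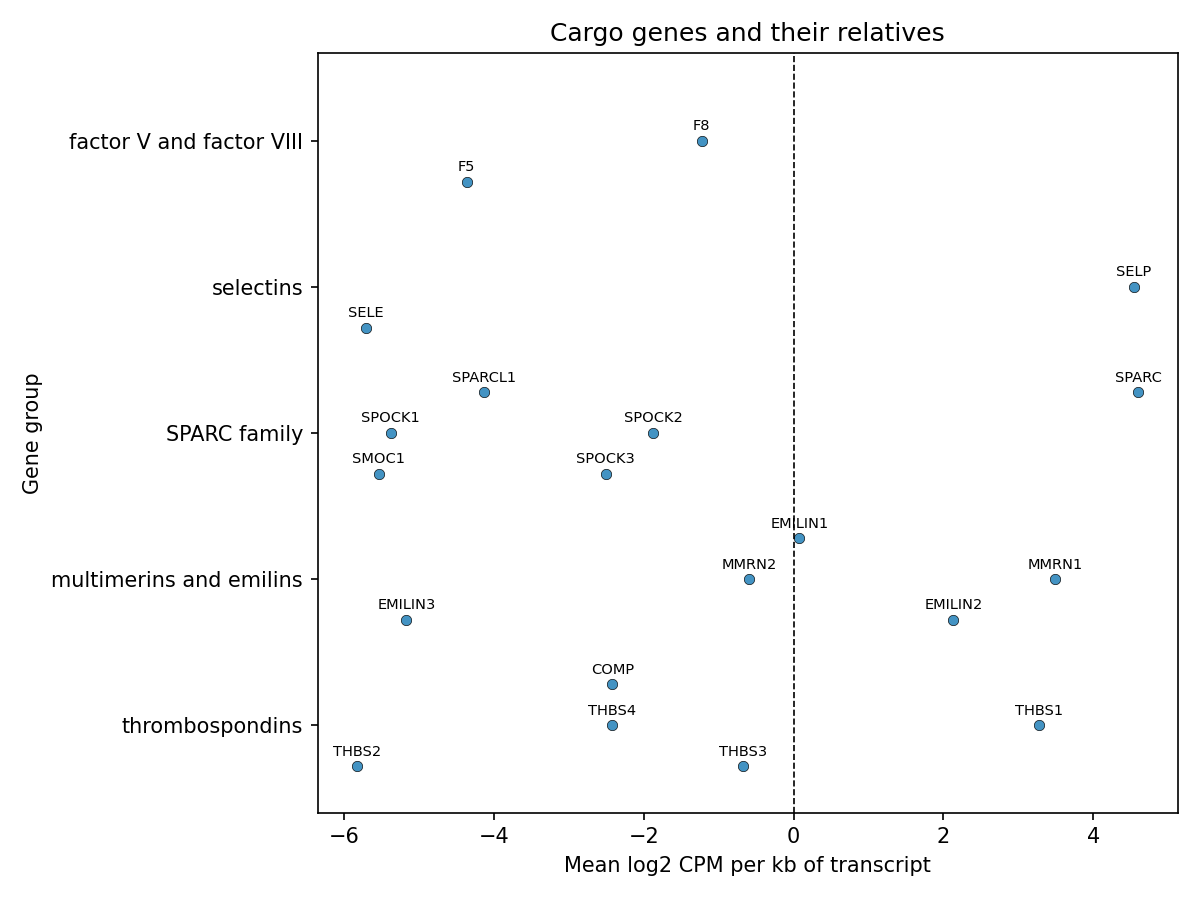
Mean level per kb of transcript (log2 CPM per kb) of cargo genes and relatives in 5 gene families; every point is 1 gene, vertical offsets only separate the points and the dashed line is 1 CPM per kb. THBS1, MMRN1, SPARC and SELP are the rightmost points of their families, and F5 lies left of F8.

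The nearest coding genes on each side of THBS1, SPARC, CLU and VWF showed no common level. Their distances differed widely, from 2644 bases between VWF and ANO2 to 1015503 bases between THBS1 and RASGRP1. THBS1 was at 3.28 in log2 CPM per kb, and its nearest non-overlapping coding genes, RASGRP1 and GPR176, were at -1.71 and -2.09. SPARC at 4.60 lay between FAT2 at -4.98 and ATOX1, a copper chaperone gene, at 5.50. CLU at 6.06 lay between EPHX2 at 3.33 and SCARA3 at 2.40. VWF at -5.85 lay between ANO2 at -3.43 and CD9 at 1.28.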

How the data were processed

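HEL cells with a control hairpin (shCtrl, 3 libraries) or a hairpin against TMIGD2 (shTMIGD2, 3 libraries) were grouped by their labels. Poly(A) libraries were prepared with a directional kit, and per the labels and the study's methods reads were aligned to hg38 with STAR 2.6.1b and counted per gene with HTSeq 0.6.1 on a refSeq annotation. The deposited table gives the authors' mean log2 CPM per gene over all 6 libraries, with averaging, normalization and prior count not given in the sources. Its other columns hold the authors' own comparison of shTMIGD2 with shCtrl (fold changes, a test statistic, p-values and adjusted p-values). These were not used, so no comparison between the groups was made, and the planned count test, which needs counts per library, was not run. Neither depth nor error can be given from the column used.

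Levels were divided by the canonical transcript length of GENCODE 44 (22987 genes matched by symbol), and the place of a gene is the share of genes with a lower level. Promoters are from RefSeq (GRCh38.p14). Python 3.11.15 and pandas 2.3.3 were used, and the functions were tested on simulated data. The genes named are all members listed, the highest and lowest per length of each other group, and genes set by name whose product binds, cleaves or carries a member or forms the granule (NBEAL2, VPS33B and VIPAS39). Neighbouring genes, relatives, XYLT2 and the marker and plasma cargo genes named beside these were added after the values had been seen. Some results on neighbouring and related genes are not reported here. Members and groups were chosen with earlier results of these data known.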

Additional observations from a re-analysis of the deposited data

How the results depend on the processing

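The number of cargo genes at or above the threshold was 6 at 1 CPM and also 6 at 0.5 and at 2 CPM. The median mean level of the 8 genes was 6.22 in log2 CPM and 6.20 without CLU, the highest. Coding length in place of transcript length changed the place of 2 of the 8 genes in the order per length, as did the union of all exons, an alternative chosen after seeing the data. With coding length THBS1 was at 4.43 and MMRN1 at 3.93 in log2 CPM per kb, and with the union of exons SELP was at 4.40 and SPARC at 4.18. The share of genes below VWF was 32.9% of all genes as deposited, 16.0% of genes with a RefSeq protein and 2.02% per kb of transcript, the last chosen after seeing the data. For CLU these shares were 96.6%, 93.7% and 95.1%. Low levels such as those of VWF and F5 depend on the authors' prior count, and the depth behind them is unknown. No paired analysis was possible because the column used holds 1 mean over all libraries. For the same reason the other count test, the filter on low counts and leaving out each library were not run, nor was the alternative for protein motifs, since no protein table was used.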
